A study of Mus musculus with 31 samples.

Results

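The 10 genes described here belong to the TGF-beta pathway and were followed through regulatory T cells (Tregs) of 5 body sites in tumor-bearing and healthy mice. The genes were Tgfb1, Lrrc32, Itgb8, Furin, Tgfbr1, Tgfbr2, Acvrl1, Smad3, Smad7 and Skil, taken by gene symbol, and each matched 1 row among the 24594 genes of the count table. TGF-beta 1 is made as an inactive complex: the protease furin cuts its precursor, GARP (encoded by Lrrc32) holds the latent complex on the Treg surface, and the integrin of alpha V and beta 8 (Itgb8) frees the cytokine from it. Active TGF-beta brings the type II receptor TGFBR2 together with the type I receptor TGFBR1, or ALK1 (encoded by Acvrl1) in other settings, and the type I receptor phosphorylates SMAD3 and related SMADs, which enter the nucleus with SMAD4. SMAD7 and SnoN (encoded by Skil) are induced by the pathway and restrain it. In T cells TGF-beta is known for inducing Foxp3 and the integrin chain Itgae, and activated Tregs are a known source of TGF-beta on GARP.

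The mice were of the FVB/N background. KEP mice were K14cre;Cdh1F/F;Trp53F/F, in which a keratin 14 promoter drives Cre and so removes E-cadherin and p53 from epithelium, and they carried spontaneous mammary tumors of 225 mm2. WT mice were wt;Cdh1F/F;Trp53F/F littermates, which carry the same floxed alleles without the Cre and had no tumor. KEP libraries came from blood, spleen, lung, tumor-draining lymph node and tumor, with 3 libraries each, and every KEP library was 1 mouse. WT libraries came from blood, spleen, lung and lymph node, with 3 each, and from mammary gland, with 4, and every WT library was a pool of 3 mice. In all there were 31 libraries in 10 groups. No age was given, and the site of the WT lymph nodes was not stated. Cells were sorted as live CD45+ CD3+ CD4+ CD8- CD25+, with no FOXP3 gate, so activated conventional CD4+ T cells could be included.

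Libraries held 8154765 to 15258958 counts. Levels are CPM, the counts of a gene as a share of the library total, after TMM scaling over all libraries, with the standard deviation (SD) over libraries. In blood, spleen, lung and lymph node, 10 pan-T genes summed to 81.34% to 103.2% of their WT spleen mean, and the group means of Foxp3 were at least 833 CPM. The mammary gland libraries went against their label: pan-T genes reached only 2.822% to 32.57% of the WT spleen mean, Foxp3 ran from 18.3 to 412 CPM, and epithelial markers summed to 5168 to 7040 CPM. Tumor libraries varied widely in pan-T genes, at 31.69% to 104.5%. Their fibroblast and smooth muscle markers summed to 4315 to 9880 CPM, against 2968 to 7305 CPM in mammary gland and at most 25.07 CPM in the other tissues. Every value from tumor or mammary gland below is therefore a value of a mixed library. Of the floxed genes, Trp53 had 111 to 132 CPM in KEP blood and 167 to 174 CPM in WT blood, 169 to 181 CPM in KEP spleen and 217 to 235 CPM in WT spleen, and 185 to 220 CPM in KEP lung and 238 to 261 CPM in WT lung, with no overlap. In lymph node it had 198 to 211 CPM in KEP mice and 207 to 242 CPM in WT mice, which overlapped. Cdh1 was at most 8.47 CPM in these tissues. K14cre is known to act in epithelium, so sorted T cells are no direct check of the deletion.

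Of the members, Tgfb1 (ENSMUSG00000002603) lies at chr7:25687002-25705077, Lrrc32 (ENSMUSG00000090958) at chr7:98494222-98501831, Furin (ENSMUSG00000030530) at chr7:80388585-80405436 and Itgb8 (ENSMUSG00000025321) at chr12:119158022-119238802 of GRCm38, the build of the files. The receptor genes lie at chr4:47353222-47414931 (Tgfbr1, ENSMUSG00000007613), chr9:116087698-116175363 (Tgfbr2, ENSMUSG00000032440) and chr15:101128522-101145336 (Acvrl1, ENSMUSG00000000530). Smad3 (ENSMUSG00000032402) lies at chr9:63646767-63757994 and Skil (ENSMUSG00000027660) at chr3:31095058-31122577; Smad7 is ENSMUSG00000025880. Furin overlaps the antisense gene Gm44851 and Acvrl1 the antisense gene Gm16031. The counts of these overlapping pairs are uncertain because the strand setting of the counting was not stated, although Gm16031 itself held only 2 counts in the whole table. The lowest count of any member in any library was 97, for Itgb8 in a WT blood library, and all 10 passed the filter on low counts in every comparison.

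Promoters were looked up in a RefSeq table of GRCm38.p6, with Smad7 left out of the search. In it 6 of the 10 members had 8 entries, with 2 starts each for Tgfbr1 and Furin. The 250 bases before 1 start, the one at the outer edge of the gene, are printed for 3 of them, chosen because the results below turn on these genes: Tgfbr1, which differed between KEP and WT Tregs, Furin, which was higher in lung, and Smad3, which was lower there. Capitals mark the SMAD-binding letters CAGAC or, on the other strand, GTCTG.
Tgfbr1, chr4:47352972-47353221, plus strand: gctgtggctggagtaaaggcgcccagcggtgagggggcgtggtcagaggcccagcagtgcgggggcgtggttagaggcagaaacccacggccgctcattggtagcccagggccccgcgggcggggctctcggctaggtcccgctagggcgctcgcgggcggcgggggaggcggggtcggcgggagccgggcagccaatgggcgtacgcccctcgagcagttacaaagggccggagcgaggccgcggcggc
Furin, chr7:80405437-80405686, minus strand: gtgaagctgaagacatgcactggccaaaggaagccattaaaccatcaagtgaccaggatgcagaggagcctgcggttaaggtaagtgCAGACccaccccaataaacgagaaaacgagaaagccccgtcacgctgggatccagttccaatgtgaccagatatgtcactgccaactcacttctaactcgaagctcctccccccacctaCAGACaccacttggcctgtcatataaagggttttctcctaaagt
Smad3, chr9:63757995-63758244, minus strand: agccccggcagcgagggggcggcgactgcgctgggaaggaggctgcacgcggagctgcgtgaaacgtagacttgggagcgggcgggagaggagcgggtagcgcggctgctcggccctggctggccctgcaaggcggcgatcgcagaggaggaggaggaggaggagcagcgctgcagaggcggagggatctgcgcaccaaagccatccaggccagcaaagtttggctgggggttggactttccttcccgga
The printed Furin window held the SMAD letters at 2 places, which begin 163 and 44 bases before the start, and the printed Tgfbr1 and Smad3 windows held none. Of 32851 promoter windows of this length in the table, 42.2% held CAGAC on either strand. The GC box GGGCGG, searched on both strands, occurred at 2 places each in the printed Tgfbr1 and Smad3 windows, where it met no SMAD letters, at none in the printed Furin window, and in 32.7% of all windows. The Tgfbr1 window was 74.8% G or C, the Smad3 window 69.2% and the Furin window 50.4%, beside a median of 52.4% over all windows. The windows of the other starts differed: that of Tgfbr1, chr4:47385966-47386215, held CAGAC at 1 place and no GC box and was 52.8% G or C, and that of Furin, chr7:80402813-80403062, held CAGAC at 1 place and the GC box at 2 and was 83.2% G or C. These are matches of letters only, and no binding was measured.

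Scaled to CPM per kilobase of exon, which allows levels of different genes to be compared, Tgfb1 and Tgfbr2 were the most abundant members in KEP spleen (43.2 and 37.6 CPM per kb), WT spleen (44.7 and 42, with Smad3 also at 42) and both lymph node groups. Itgb8 was the lowest of the members in every group but KEP tumor, at 0.969 CPM per kb in WT blood and 12 CPM per kb in KEP tumor. Smad7 had the highest mean in WT lung at 56.9 ± 5.49 CPM per kb, close to Lrrc32 at 54.8 ± 11.8 and Tgfbr2 at 53 ± 3.04 CPM per kb. Exon lengths were taken from GENCODE M21, where Lrrc32 starts at 98489283 and not at 98494222 as in the count table. Its scaled level is therefore approximate. Skil had the highest mean in KEP tumor at 73.5 ± 17.5 CPM per kb, beside Tgfb1 at 66.4 ± 29.5 CPM per kb. In WT mammary gland Skil was again highest at 41.6 ± 9.59 CPM per kb, beside Lrrc32 at 31.1 ± 14.7 CPM per kb. From its highest to its lowest group mean, Itgb8 spanned 12.3-fold, Lrrc32 12.2-fold, Skil 10.5-fold and Acvrl1 7.26-fold, whereas Smad3, Tgfbr1 and Tgfbr2 spanned 2.24-fold, 2.27-fold and 2.29-fold. When the 10 groups were ordered by mean, most neighbours overlapped: all 9 neighbour pairs for Lrrc32, 8 of 9 for Tgfb1, Furin and Tgfbr2, and only 3 of 9 for Skil.

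**Figure D1:**
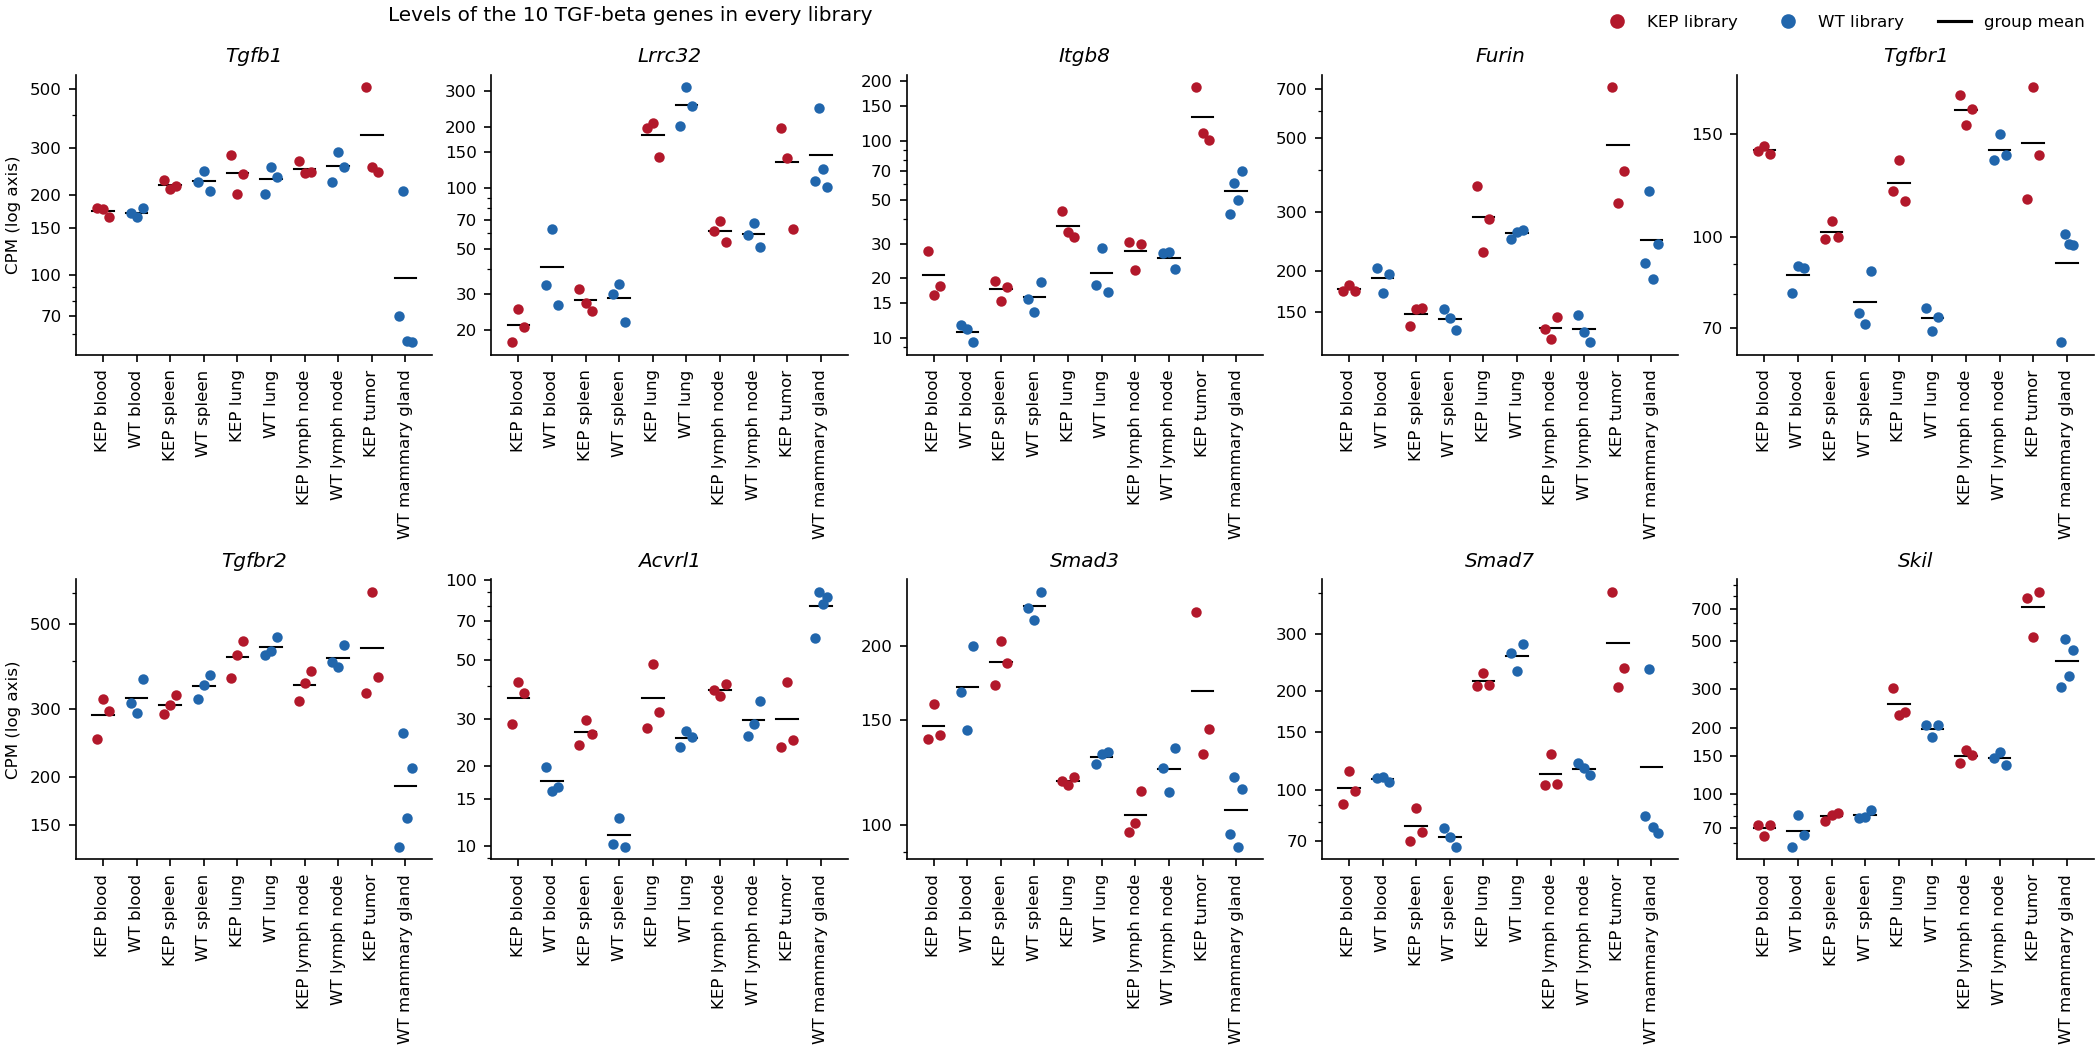
CPM on a log axis for each of the 10 genes in each of the 31 libraries. Points are libraries (KEP red, WT blue) and black bars are group means; Tgfbr1 in KEP blood (139 to 143 CPM) lies above WT blood (80.4 to 89.4 CPM), and Lrrc32 is high in KEP lung (143 to 209 CPM) and WT lung (203 to 314 CPM) beside KEP spleen (24.8 to 31.8 CPM) and WT spleen (22 to 33.7 CPM).

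The first comparison, KEP against WT within a tissue, addressed how Tregs outside the tumor differ in tumor-bearing mice. The receptor genes Tgfbr1 and Acvrl1 rose in KEP blood, spleen and lung, Itgb8 rose in KEP blood and lung, and Tgfb1, Furin and Tgfbr2 passed the test in no tissue. Genes are named as called where edgeR's quasi-likelihood test gave an adjusted p under 0.05 (Benjamini-Hochberg, over 12825 genes). In blood 4 of the 10 members were called (3 higher and 1 lower), where 20.2% of all genes were called (9.88% higher and 10.3% lower). In spleen it was 2 members (both higher) and 4.26% of all genes (3.3% higher and 0.959% lower). In lung it was 5 members (4 higher and 1 lower) and 19.9% of all genes (9.61% higher and 10.3% lower). In lymph node no member was called, and 1.12% of all genes were called (0.663% higher and 0.452% lower). DESeq2 and limma-voom also called 0 members there. The median log2 fold change of the members was -0.05 in blood, 0.01 in spleen, 0.09 in lung and 0.02 in lymph node, and that of all genes tested was -0.01, -0.00126, -0.02 and 0.00845 in the same order of tissues.

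Tgfbr1, the type I receptor that signals through SMAD3, had 140, 143 and 139 CPM in KEP blood, against 80.4, 89.4 and 88.7 CPM in WT blood. In lung it had 120, 135 and 115 CPM in KEP mice, against 75.8, 69.2 and 73.1 CPM in WT mice. The groups did not overlap in either tissue, and the smallest KEP value exceeded the largest WT value by a wide step. The log2 fold change was 0.70 in blood (SE 0.083, adjusted p = 6.32e-06) and 0.73 in lung (SE 0.084, adjusted p = 6.29e-06), and both calls held under every alternative that was run. In spleen Tgfbr1 had 99.4, 107 and 99.9 CPM in KEP mice, against 74.4, 71.2 and 87.4 CPM in WT mice, a rise of 0.39 (SE 0.083, adjusted p = 0.0056) that was lost without WT spleen replicate 2 (adjusted p = 0.0596) and in a fit of all 31 libraries (adjusted p = 0.288). In lymph node it had 175, 155 and 165 CPM in KEP mice, against 135, 150 and 138 CPM in WT mice; these did not overlap, but the log2 difference of 0.22 (SE 0.081) did not pass (adjusted p = 0.192).

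Acvrl1, known mainly as an endothelial type I receptor, had 28.8, 41.3 and 37.6 CPM in KEP blood, against 19.8, 16.1 and 16.7 CPM in WT blood. In spleen it had 24, 29.8 and 26.5 CPM in KEP mice, against 10.2, 12.8 and 9.96 CPM in WT mice, so that KEP spleen was 2.44-fold higher with no overlap. The log2 fold changes were 1.02 in blood (SE 0.171, adjusted p = 0.00025) and 1.28 in spleen (SE 0.176, adjusted p = 5.26e-05), and both calls held under every alternative run. Of 9 endothelial markers, Cdh5 was at most 0.855 CPM in every library of blood, spleen and lymph node. Kdr averaged 0 CPM in KEP spleen and 0.025 CPM in WT spleen. Pecam1, also of the 9, averaged 204 CPM in KEP blood, 207 in WT blood, 177 in KEP spleen and 170 in WT spleen. The 9 summed to 238 to 277.8 CPM in KEP blood and 216.5 to 264.6 CPM in WT blood. In spleen they summed to 166.9 to 196.7 CPM in KEP mice and 158.9 to 191 CPM in WT mice. Their part in the Acvrl1 levels was not tested. In lung Acvrl1 had 27.8, 48.4 and 31.9 CPM in KEP mice, against 23.6, 27 and 25.6 CPM in WT mice. That rise of 0.47 (SE 0.168, adjusted p = 0.0493) rested on KEP lung replicate 2, without which the adjusted p was 0.371; it was also lost without WT lung replicate 1 (0.138), 2 (0.0743) or 3 (0.0973), and with title date as a random replicate block in limma-voom (0.0791). KEP lung replicate 2 also had the highest sum of the 9 endothelial markers of its group, 277.8 CPM against 214.2 and 198.6 CPM in the other KEP lung libraries. Most of these sums was Pecam1, which ran from 184 to 211 CPM in KEP lung. The part of these markers in the lung rise was not tested. In lymph node Acvrl1 averaged 38.7 ± 2.03 CPM in KEP mice and 29.9 ± 4.66 CPM in WT mice (SD, n = 3 each), a log2 difference of 0.37 (SE 0.16) that did not pass (adjusted p = 0.292).

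Itgb8, the integrin chain that activates latent TGF-beta, had 27.5, 16.5 and 18.2 CPM in KEP blood, against 11.6, 11.1 and 9.49 CPM in WT blood. In lung it had 43.8, 34.3 and 32.4 CPM in KEP mice, against 18.5, 28.5 and 17.1 CPM in WT mice. In neither tissue did the groups overlap, although WT lung replicate 2 came close to the lowest KEP lung library. The log2 fold change was 0.94 in blood (SE 0.211, adjusted p = 0.00331) and 0.76 in lung (SE 0.197, adjusted p = 0.00902). The blood call was lost with sorted cell number as a covariate (adjusted p = 0.0864), and the lung call without KEP lung replicate 1 (0.0611) or WT lung replicate 3 (0.0549). In spleen and lymph node Itgb8 differed by 0.12 and 0.11 on the log2 scale with overlapping groups.

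Lrrc32, the surface anchor of latent TGF-beta, was the called member that fell in blood: it had 17.4, 25.3 and 20.6 CPM in KEP mice, against 33.2, 62.9 and 26.7 CPM in WT mice. WT blood replicate 2 alone was far above the rest, and it was sorted from 9000 cells. The log2 fold change was -0.96 (SE 0.275, adjusted p = 0.021), and the call was lost without that library (0.145), without KEP blood replicate 1 (0.0869) or 3 (0.0756), and with sorted cell number as a covariate (0.225). Platelet markers summed to 213.2 to 330.3 CPM in KEP blood and 92.75 to 206.5 CPM in WT blood, and at most 39.92 CPM elsewhere. A list of dendritic cell markers summed to 262.9 to 272.7 CPM in KEP blood and 403.3 to 649.8 CPM in WT blood. WT blood replicate 2 had the highest dendritic cell sum of its group, 649.8 CPM against 403.3 and 448.2 CPM. It also had the highest endothelial sum, 264.6 CPM against 216.5 and 220.2 CPM, but its platelet sum of 164.3 CPM was below that of replicate 1. The part of any of these lists in the blood results was not tested. In lung Lrrc32 averaged 183 ± 35.6 CPM in KEP mice and 257 ± 55.5 CPM in WT mice, groups that overlapped (adjusted p = 0.136).

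Among the intracellular members, Skil and Smad7 moved in opposite directions in lung. Skil had 305, 230 and 237 CPM in KEP lung, against 206, 181 and 207 CPM in WT lung, a log2 fold change of 0.34 (SE 0.106, adjusted p = 0.0244). Smad7 had 208, 228 and 209 CPM in KEP lung, against 262, 230 and 279 CPM in WT lung, a log2 fold change of -0.29 (SE 0.098, adjusted p = 0.0373). The groups did not overlap for either gene, but for Smad7 the highest KEP and lowest WT libraries nearly met. The Skil call was lost without KEP lung replicate 1 (0.209) or WT lung replicate 2 (0.107), and the Smad7 call without KEP lung replicate 1 (0.122) or 3 (0.0937) or WT lung replicate 1 (0.0985) or 3 (0.171). Scaled to pan-T genes, which left 26.4% of all called genes in lung higher, against 48.4% with TMM, the Skil call was lost as well (0.153). Smad3 had lower means in KEP mice in all 4 tissues, by 0.17 to 0.31 on the log2 scale, and passed in none in the 24-library edgeR fit; the lowest adjusted p was 0.0601, in spleen, where it had 172, 204 and 187 CPM in KEP mice, against 231, 221 and 246 CPM in WT mice. That Smad3 difference did pass with title date as a random replicate block in limma-voom (adjusted p = 0.0399), in DESeq2 (0.0256), at a minimum count of 50 (0.0484), with no filter (0.0453) and without KEP spleen replicate 2 (0.0478), and the blood difference passed without WT blood replicate 2 (0.0215).

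**Figure D2:**
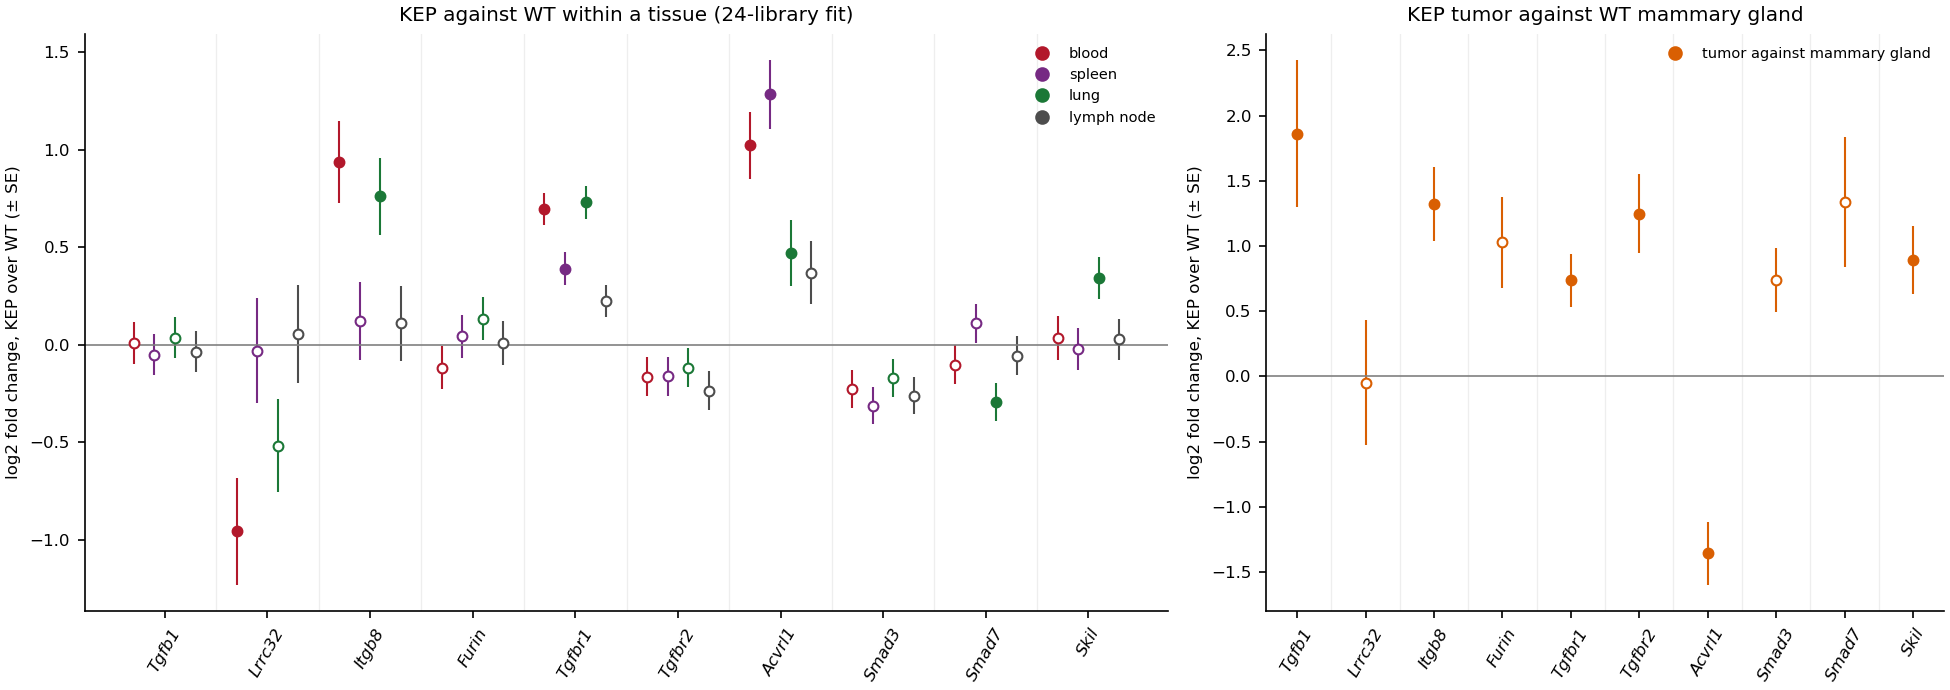
Log2 fold change of KEP over WT with its standard error for the 10 genes. The left panel shows blood, spleen, lung and lymph node and the right panel KEP tumor against WT mammary gland; filled points were called and open points were not. Tgfbr1 and Acvrl1 are filled above 0 in blood, spleen and lung, and in the right panel Acvrl1 is the only filled point below 0.

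Foxp3 rose with the genotype too. Foxp3 averaged 1674 ± 88.3 CPM in KEP blood and 983 ± 88.9 CPM in WT blood, with log2 fold changes of 0.76 in blood (adjusted p = 5.15e-05), 0.63 in spleen (adjusted p = 0.000581) and 0.50 in lung (adjusted p = 0.00223). The 5 genes of the Treg list, Foxp3 among them, summed to 3874 to 4788 CPM in KEP blood and 2205 to 2949 CPM in WT blood, to 2727 to 3517 CPM in KEP spleen and 1887 to 2306 CPM in WT spleen, and to 5766 to 6133 CPM in KEP lung and 3644 to 4498 CPM in WT lung. In lymph node the list summed to 3510 to 3862 CPM in KEP mice and 2667 to 3502 CPM in WT mice. In libraries of pooled cells, a larger share of cells with a gene and more RNA of it per cell cannot be told apart, and the part of the Treg share in the rises above was not tested. Of the lists of other cells, macrophage and monocyte markers summed to 28.33 to 65.14 CPM in KEP lung and 81 to 144.5 CPM in WT lung, and epithelial markers to 24.97 to 42.9 CPM in KEP blood and 6.436 to 15.59 CPM in WT blood. Their part was not tested. No title date held both genotypes, and KEP libraries were single mice where WT libraries were pools, so date, pooling and genotype cannot be told apart.

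Whether the KEP effect differed between tissues was tested for the 6 pairs of tissues. Few of all genes passed in most pairs. The share was 0% for blood minus spleen and for blood minus lung, and 0.0234% for spleen minus lung. It was 0.125% for spleen minus lymph node and 0.133% for lung minus lymph node, so the lack of member calls there is not particular to the members. Of the 10 members only Tgfbr1 passed, and in 1 pair: its effect was 0.47 larger on the log2 scale in blood than in lymph node (SE 0.116, adjusted p = 0.0482), where 0.889% of all genes passed. The adjusted p for that difference ran from 0.0036 to 0.684 over the alternatives and was over 0.05 without any single library of blood or lymph node (0.0506 to 0.122) and without WT lung replicate 3 (0.062). For lung minus lymph node the Tgfbr1 difference was 0.51 (SE 0.117, adjusted p = 0.0698), which passed with title date as a random replicate block in limma-voom (0.0171). For Acvrl1 the effect was 0.91 larger in spleen than in lymph node and did not pass (SE 0.240, adjusted p = 0.224).

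The second comparison set each tissue against spleen within a genotype, and asked how these genes differ between Tregs of a lymphoid organ and of other sites. In lung, Lrrc32, Smad7, Skil and Furin rose over spleen in both genotypes and Smad3 fell. In lymph node, Tgfbr1, Skil, Lrrc32, Smad7, Acvrl1 and Itgb8 rose in both genotypes and Smad3 fell. In KEP lung 9 members were called, 8 higher and 1 lower, where 48.1% of all genes were called (23.7% higher and 24.4% lower). In WT lung it was 7 members, 6 higher and 1 lower, where 44.9% of all genes were called (23.1% higher and 21.8% lower). Lymph node had 7 called members in each genotype, 6 higher and 1 lower, where 11.1% of all genes were called in KEP mice (5.35% higher and 5.72% lower) and 8.97% in WT mice (4.56% higher and 4.41% lower). In blood 4 members were called in KEP mice, 2 higher and 2 lower, where 24.6% of all genes were called (12.3% higher and 12.2% lower), and 6 in WT mice, 3 higher and 3 lower, where 25.5% were (13.8% higher and 11.8% lower). The median log2 fold change of the members was 0.69 in KEP lung, 0.64 in WT lung, 0.54 in KEP lymph node and 0.68 in WT lymph node, and that of all genes lay between -0.03 and 0.02 in these 4 comparisons. Spleen libraries were shared by the comparisons of 1 genotype. The Treg list also moved with tissue: it summed to 5766 to 6133 CPM in KEP lung, 3510 to 3862 CPM in KEP lymph node and 2727 to 3517 CPM in KEP spleen, and to 3644 to 4498 CPM in WT lung, 2667 to 3502 CPM in WT lymph node and 1887 to 2306 CPM in WT spleen. Its part in the differences from spleen was not tested.

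Lrrc32 had 199, 209 and 143 CPM in KEP lung, against 31.8, 27.3 and 24.8 CPM in KEP spleen. It had 203, 314 and 253 CPM in WT lung, against 30.1, 33.7 and 22 CPM in WT spleen. In both genotypes the lowest lung library lay far above the highest spleen library. The log2 fold changes were 2.70 in KEP mice (SE 0.263, adjusted p = 1.54e-07) and 3.19 in WT mice (SE 0.268, adjusted p = 2.42e-08), and both held under every alternative run. Lrrc32 is also known as a gene of endothelium and platelets. Cdh5 averaged 11.6 ± 9.36 CPM in KEP lung and 13 ± 2.69 CPM in WT lung, beside 0.133 CPM in KEP spleen and 0.143 CPM in WT spleen. Within lung, the endothelial list was highest in the same library as Lrrc32 in each genotype, at 277.8 CPM in KEP lung replicate 2 and 309.0 CPM in WT lung replicate 2. In spleen that list summed to 166.9 to 196.7 CPM in KEP mice and 158.9 to 191 CPM in WT mice. Most of its sum in both tissues was Pecam1, which averaged 194 CPM in KEP lung, 204 in WT lung, 177 in KEP spleen and 170 in WT spleen. The dendritic cell list was highest in the same libraries, at 826.7 CPM in KEP lung replicate 2 and 1304 CPM in WT lung replicate 2; it averaged 706.4 CPM in KEP lung and 314.4 CPM in KEP spleen, and 1014 CPM in WT lung and 299.7 CPM in WT spleen. The part of either list in the lung level of Lrrc32 was not tested. In lymph node Lrrc32 averaged 61.5 ± 7.14 CPM in KEP mice and 59.2 ± 7.99 CPM in WT mice, rises of 1.14 (adjusted p = 0.00828) and 1.06 (adjusted p = 0.0151) over spleen. The WT call was lost without WT lymph node replicate 2 (0.0712) or WT spleen replicate 3 (0.0733).

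Smad7 and Skil, the feedback inhibitors, were both higher in lung and lymph node than in spleen. Smad7 had 208, 228 and 209 CPM in KEP lung, against 69.9, 88.0 and 74.5 CPM in KEP spleen, a log2 fold change of 1.46 (SE 0.101, adjusted p = 1.23e-11). In WT mice it had 262, 230 and 279 CPM in lung, against 76.5, 71.8 and 67.1 CPM in spleen, a log2 fold change of 1.86 (SE 0.103, adjusted p = 1.58e-13). Lung and spleen were far apart in both genotypes, and the Smad7 means of blood and lymph node lay between them. Skil had 305, 230 and 237 CPM in KEP lung, against 75.6, 80.5 and 82.4 CPM in KEP spleen, a log2 fold change of 1.68 (SE 0.109, adjusted p = 3.45e-12), and in WT mice the change was 1.32 (SE 0.109, adjusted p = 3.96e-10). In lymph node Skil had 139, 158 and 150 CPM in KEP mice and 146, 156 and 136 CPM in WT mice, rises of 0.91 (adjusted p = 4.72e-06) and 0.86 (adjusted p = 5.49e-06) over spleen. Per the labels' protocols lungs were digested with an enzyme, and no digestion is given for spleen, blood or lymph node, so digestion and tissue cannot be told apart for lung.

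Smad3, the receptor-activated SMAD, ran the other way. It had 172, 204 and 187 CPM in KEP spleen and 231, 221 and 246 CPM in WT spleen, the highest group means of the series. KEP lung had 119, 117 and 120 CPM and KEP lymph node 97.2, 101 and 114 CPM, both below every KEP spleen library. The log2 fold changes in KEP mice were -0.67 in lung (SE 0.096, adjusted p = 2.8e-06), -0.84 in lymph node (SE 0.096, adjusted p = 3.22e-06) and -0.35 in blood (SE 0.095, adjusted p = 0.00938). In WT mice they were -0.82 in lung, -0.89 in lymph node and -0.43 in blood, all called. The lung and lymph node calls held under every alternative, and the KEP blood call was lost without KEP spleen replicate 2 (0.0605).

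Of the activation genes, Furin had 358, 227 and 285 CPM in KEP lung, against 136, 153 and 155 CPM in KEP spleen, and 248.9, 261 and 265 CPM in WT lung, against 153, 145 and 133 CPM in WT spleen. The log2 fold changes of 0.96 (SE 0.111, adjusted p = 1.2e-07) in KEP mice and 0.87 (SE 0.112, adjusted p = 6.51e-07) in WT mice held under every alternative. Itgb8 rose in KEP lung over KEP spleen by 1.05 (SE 0.194, adjusted p = 9.75e-05), where its groups did not overlap; in WT lung its groups overlapped and the difference of 0.41 did not pass (adjusted p = 0.103). Whether these 2 Itgb8 differences differ is the same contrast as the KEP effect in spleen minus that in lung, which was -0.64 and did not pass (SE 0.281, adjusted p = 0.616). Tgfb1 itself differed little between lung or lymph node and spleen, by 0.05 to 0.21 on the log2 scale with no call. It fell in blood, to 179, 177 and 165 CPM in KEP blood, against 228, 210 and 215 CPM in KEP spleen. That change of -0.32 (SE 0.106, adjusted p = 0.0306), and the WT change of -0.38 (SE 0.106, adjusted p = 0.011), were lost with sorted cell number as a covariate (0.0764 and 0.257). The KEP change was also lost without KEP blood replicate 1 (0.0569), 2 (0.056) or 3 (0.126) or KEP spleen replicate 1 (0.113) or 3 (0.0693), and the WT change without WT spleen replicate 2 (0.0633).

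Of the receptors, Tgfbr1 was highest in lymph node, at 175, 155 and 165 CPM in KEP mice and 135, 150 and 138 CPM in WT mice. Its rise over spleen of 0.70 in KEP mice (SE 0.082, adjusted p = 4.33e-06) and 0.87 in WT mice (SE 0.083, adjusted p = 1.37e-07) held under every alternative. Tgfbr2 rose modestly in lung, by 0.40 in KEP mice (adjusted p = 0.0019) and 0.36 in WT mice (adjusted p = 0.00528). Both Tgfbr2 calls were lost in the fit of all 31 libraries (0.128 and 0.195). Acvrl1 rose over spleen in WT lung by 1.23 (SE 0.18, adjusted p = 4.75e-06) and in WT lymph node by 1.45 (SE 0.177, adjusted p = 4.25e-06), where WT spleen had the lowest Acvrl1 level of the series. In KEP mice, with more Acvrl1 in spleen, its differences were 0.42 in lung (adjusted p = 0.0381) and 0.54 in lymph node (adjusted p = 0.0322). The KEP lung call was lost without KEP lung replicate 2 (0.441) or KEP spleen replicate 1 (0.122) or 3 (0.0729). The KEP lymph node call was lost without any of its own 3 libraries (0.0623 to 0.1) or without KEP spleen replicate 1 (0.146) or 3 (0.101).

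In blood, Smad7 rose over spleen by 0.40 in KEP mice (adjusted p = 0.00532) and 0.61 in WT mice (adjusted p = 0.000104), and no left-out library ended either call. Both Smad7 calls were lost in the fit of all 31 libraries (0.474 and 0.235). Tgfbr1 rose in KEP blood by 0.47 (SE 0.082, adjusted p = 0.000175), a call that held under every alternative. With title date as a replicate block, Acvrl1 (0.43, adjusted p = 0.0175) and Lrrc32 (-0.39, adjusted p = 0.0243) passed in KEP blood as well. Furin rose in WT blood by 0.42 (adjusted p = 0.00707) and Acvrl1 by 0.69 (adjusted p = 0.00705). The Furin call was lost without WT blood replicate 1 (0.0503), and the Acvrl1 call with sorted cell number as a covariate (0.236). Itgb8 was lower in WT blood, by -0.58 (adjusted p = 0.0481), a call lost without any WT blood library (0.0702 to 0.148) and without WT spleen replicate 1 (0.065) or 3 (0.191). In lymph node Itgb8 was higher than in spleen by 0.65 in KEP mice (adjusted p = 0.0317) and 0.66 in WT mice (adjusted p = 0.0367). The KEP call was lost without KEP lymph node replicate 1 (0.136) or 3 (0.103) or any KEP spleen library (0.0537 to 0.138), and the WT call without WT lymph node replicate 1 (0.114) or 2 (0.126) or WT spleen replicate 1 (0.117) or 2 (0.172).

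**Figure D3:**
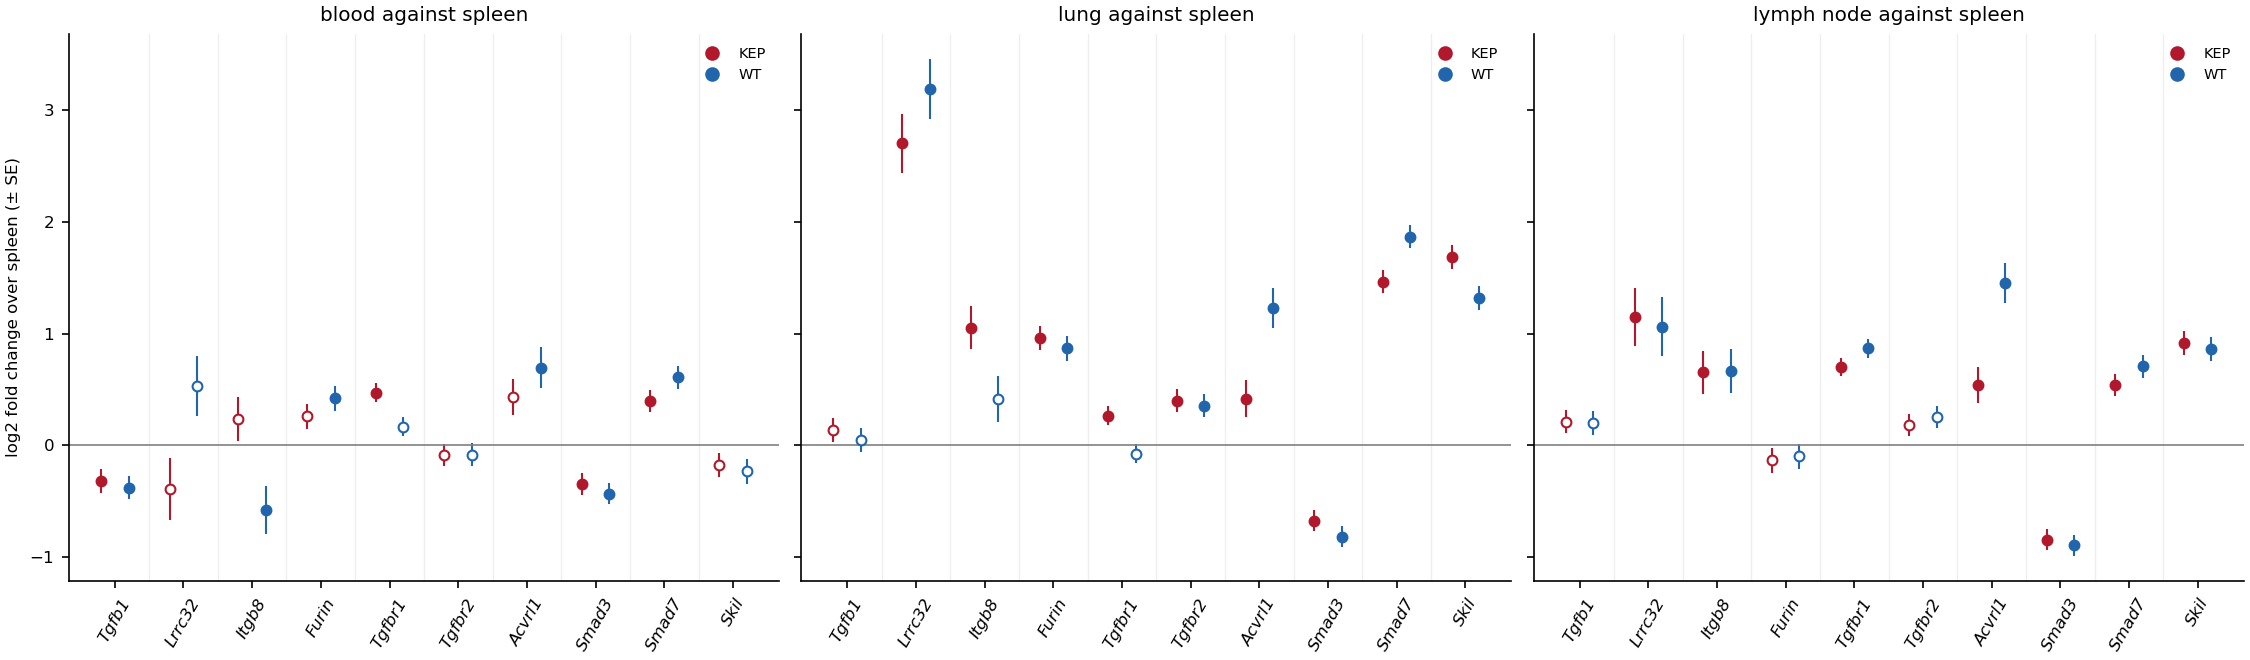
Log2 fold change over spleen with its standard error in blood, lung and lymph node, KEP in red and WT in blue; filled points were called. In lung Lrrc32, Furin, Smad7 and Skil are filled above 0 in both genotypes, and Smad3 is filled below 0 in every panel.

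The third comparison set KEP tumor against WT mammary gland and against the other KEP tissues. Itgb8 and Skil rose in tumor over every tissue compared. Furin, Smad7 and Lrrc32 rose over KEP blood and spleen, and Furin and Smad7 over KEP lymph node as well. Against mammary gland, 6 of the 10 members were called, 5 higher (Tgfb1, Itgb8, Tgfbr2, Skil and Tgfbr1) and Acvrl1 lower, where 25.2% of 14538 genes were called (11.2% higher and 14% lower). Against the other KEP tissues the calls were all higher: 6 members against blood (47.9% of all genes called, 28% higher), 6 against spleen (46.8%, 26.9% higher), 2 against lung (32.8%, 19.8% higher) and 5 against lymph node (44.7%, 26.5% higher). The median log2 fold change of the members was 0.96 against mammary gland and 0.44 to 1.20 against the 4 KEP tissues, where that of all genes was -0.00710 and 0.04 to 0.06. These 4 comparisons share the tumor libraries.

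Itgb8 had 187, 109 and 101 CPM in KEP tumor, against 42.6, 60.7, 50.1 and 70.0 CPM in WT mammary gland. Every tumor library was also above every library of the 8 other groups, the highest of which had 43.8 CPM. The log2 fold change was 1.32 over mammary gland (SE 0.283, adjusted p = 0.0172), 2.68 over KEP blood (SE 0.324, adjusted p = 0.00255), 2.92 over KEP spleen (SE 0.289, adjusted p = 0.00183), 1.85 over KEP lung (SE 0.273, adjusted p = 0.00672) and 2.32 over KEP lymph node (SE 0.292, adjusted p = 0.00269). The 4 calls against KEP tissues held under every alternative, and the call against mammary gland was lost without mammary gland replicate 1 (0.0532) or 3 (0.0565). Scaled to pan-T genes, which moved the median of all genes to -3.42, the difference from mammary gland turned to -2.31. Itgb8 was highest in tumor replicate 1, where pan-T genes were at 104.5% of the WT spleen mean, and in gland replicate 4, where they were at 3.584%; gland replicate 2, at 32.57%, had less Itgb8 than replicate 4.

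Skil had 786, 519 and 834 CPM in KEP tumor, against 307, 507, 346 and 454 CPM in WT mammary gland, so that the lowest tumor and the highest gland library nearly met. It was far above the other KEP tissues, with 10.2-fold the mean of KEP blood and 2.77-fold that of KEP lung. The log2 fold change was 0.89 over mammary gland (SE 0.261, adjusted p = 0.0436), 3.37 over KEP blood (SE 0.24, adjusted p = 0.00104) and 1.48 over KEP lung (SE 0.244, adjusted p = 0.00838). The gland call was lost without tumor replicate 1 (0.104) or 3 (0.0736) or without gland replicate 1 (0.115), 3 (0.125) or 4 (0.0934); scaled to pan-T genes the gland difference turned to -2.43. The call against KEP lung was lost without KEP lung replicate 2 (0.0522) or 3 (0.0503). Among tumor libraries Skil was highest in replicate 3, where pan-T genes were lowest, at 31.69% of the WT spleen mean. Epithelial markers there summed to 2246 CPM, against 172.2 and 205.1 CPM in the other tumor libraries. Among gland libraries it was highest in replicate 2, with pan-T genes at 32.57%, and replicate 4, at 3.584%, had 454 CPM. The part of other cells in the Skil levels was not tested.

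Tgfb1 had 507, 255 and 243 CPM in KEP tumor, against 69.9, 207, 56.6 and 55.9 CPM in WT mammary gland. The gland library with 207 CPM was the one with the most T cell RNA, and the 3 others lay below every library of the other tissues. The log2 fold change of 1.86 (SE 0.564, adjusted p = 0.0498) was lost without tumor replicate 1 (0.138) or 2 (0.0819) and without gland replicate 1 (0.124), 3 (0.119) or 4 (0.118). Against gland replicate 2 alone, without a test, the tumor mean was 0.81 higher on the log2 scale. Scaled to pan-T genes the sign turned, to -1.20, in a scaling that moved the median of all genes to -3.42. Macrophage and monocyte markers summed to 882.4 to 5490 CPM in tumor and 377.0 to 856.6 CPM in mammary gland. Their part in the level of Tgfb1, which those cells also make, was not tested. Over KEP blood Tgfb1 rose by 0.96 (SE 0.300, adjusted p = 0.0396), a call lost without KEP blood replicate 1 (0.108), 2 (0.116) or 3 (0.133).

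Tgfbr2 had 330, 605 and 363 CPM in KEP tumor, against 132, 260, 156 and 210 CPM in WT mammary gland, a log2 fold change of 1.25 (SE 0.301, adjusted p = 0.0246). Tgfbr1 had 116, 180 and 138 CPM in KEP tumor, against 66.2, 101, 97.5 and 96.9 CPM in WT mammary gland, a log2 fold change of 0.74 (SE 0.205, adjusted p = 0.0371). Neither pair of groups overlapped, and both differences turned negative when scaled to pan-T genes (-2.08 and -2.70). Both calls were lost without tumor replicate 2 (0.0753 for Tgfbr2 and 0.118 for Tgfbr1) and without gland replicates 1, 3 or 4 (0.0648 to 0.0726 and 0.0801 to 0.088). Acvrl1 fell to 23.6, 41.3 and 25.0 CPM in KEP tumor, against 60.9, 90.3, 81.5 and 86.4 CPM in WT mammary gland. Its log2 fold change was -1.36 (SE 0.242, adjusted p = 0.0104), and no left-out library ended the call. With sorted cell number as a covariate the call was lost (0.136). Endothelial markers moved the same way, with summed levels of 142.4 to 519.3 CPM in tumor and 1157 to 1837 CPM in mammary gland. Cdh5 ran from 16.4 to 136 CPM in tumor and from 176 to 283 CPM in mammary gland. Their part in the Acvrl1 difference was not tested.

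Furin had 708, 318 and 399 CPM in KEP tumor and Smad7 403, 206 and 235 CPM. Both were highest in tumor replicate 1. Furin rose by 1.44 over KEP blood (SE 0.305, adjusted p = 0.0111), 1.71 over KEP spleen (SE 0.33, adjusted p = 0.00876) and 1.88 over KEP lymph node (SE 0.332, adjusted p = 0.0066), and Smad7 by 1.49, 1.88 and 1.38 over the same tissues (adjusted p = 0.00728, 0.00472 and 0.012). Neither passed against KEP lung or mammary gland. The Furin call against KEP blood was lost without KEP blood replicate 2 (0.0507) or 3 (0.0553), and the Smad7 call against KEP lymph node without its replicate 1 (0.0584) or 3 (0.0603). Lrrc32 had 198, 141 and 62.6 CPM in KEP tumor, which overlapped mammary gland (109, 248.7, 125 and 102 CPM), KEP lung and KEP lymph node. Lrrc32 rose over KEP blood by 2.67 (SE 0.421, adjusted p = 0.00487) and over KEP spleen by 2.28 (SE 0.414, adjusted p = 0.00728). Tgfbr1 rose over KEP spleen by 0.52 (adjusted p = 0.0411) and Smad3 over KEP lymph node by 0.74 (adjusted p = 0.0476). The Tgfbr1 call was lost without KEP spleen replicate 1 (0.133), 2 (0.112) or 3 (0.13) or tumor replicate 2 (0.0789) or 3 (0.0652). The Smad3 call was lost without KEP lymph node replicate 1 (0.155), 2 (0.15) or 3 (0.108). Tumors were digested with another enzyme, so digestion and tissue cannot be told apart in these comparisons either.

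**Figure D4:**
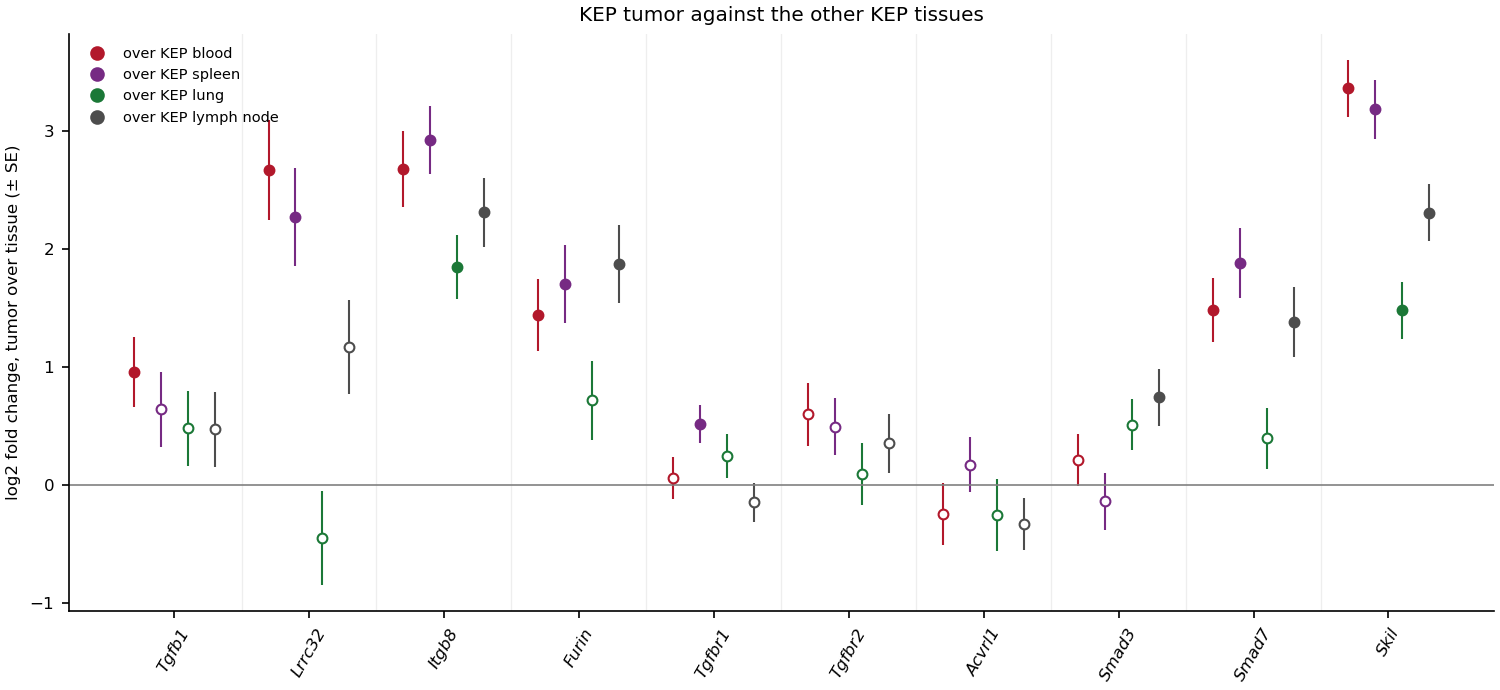
Log2 fold change of KEP tumor over KEP blood, spleen, lung and lymph node with its standard error; filled points were called. Itgb8 and Skil are filled above 0 in all 4 comparisons, and no called member lies below 0.

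**Figure D5:**
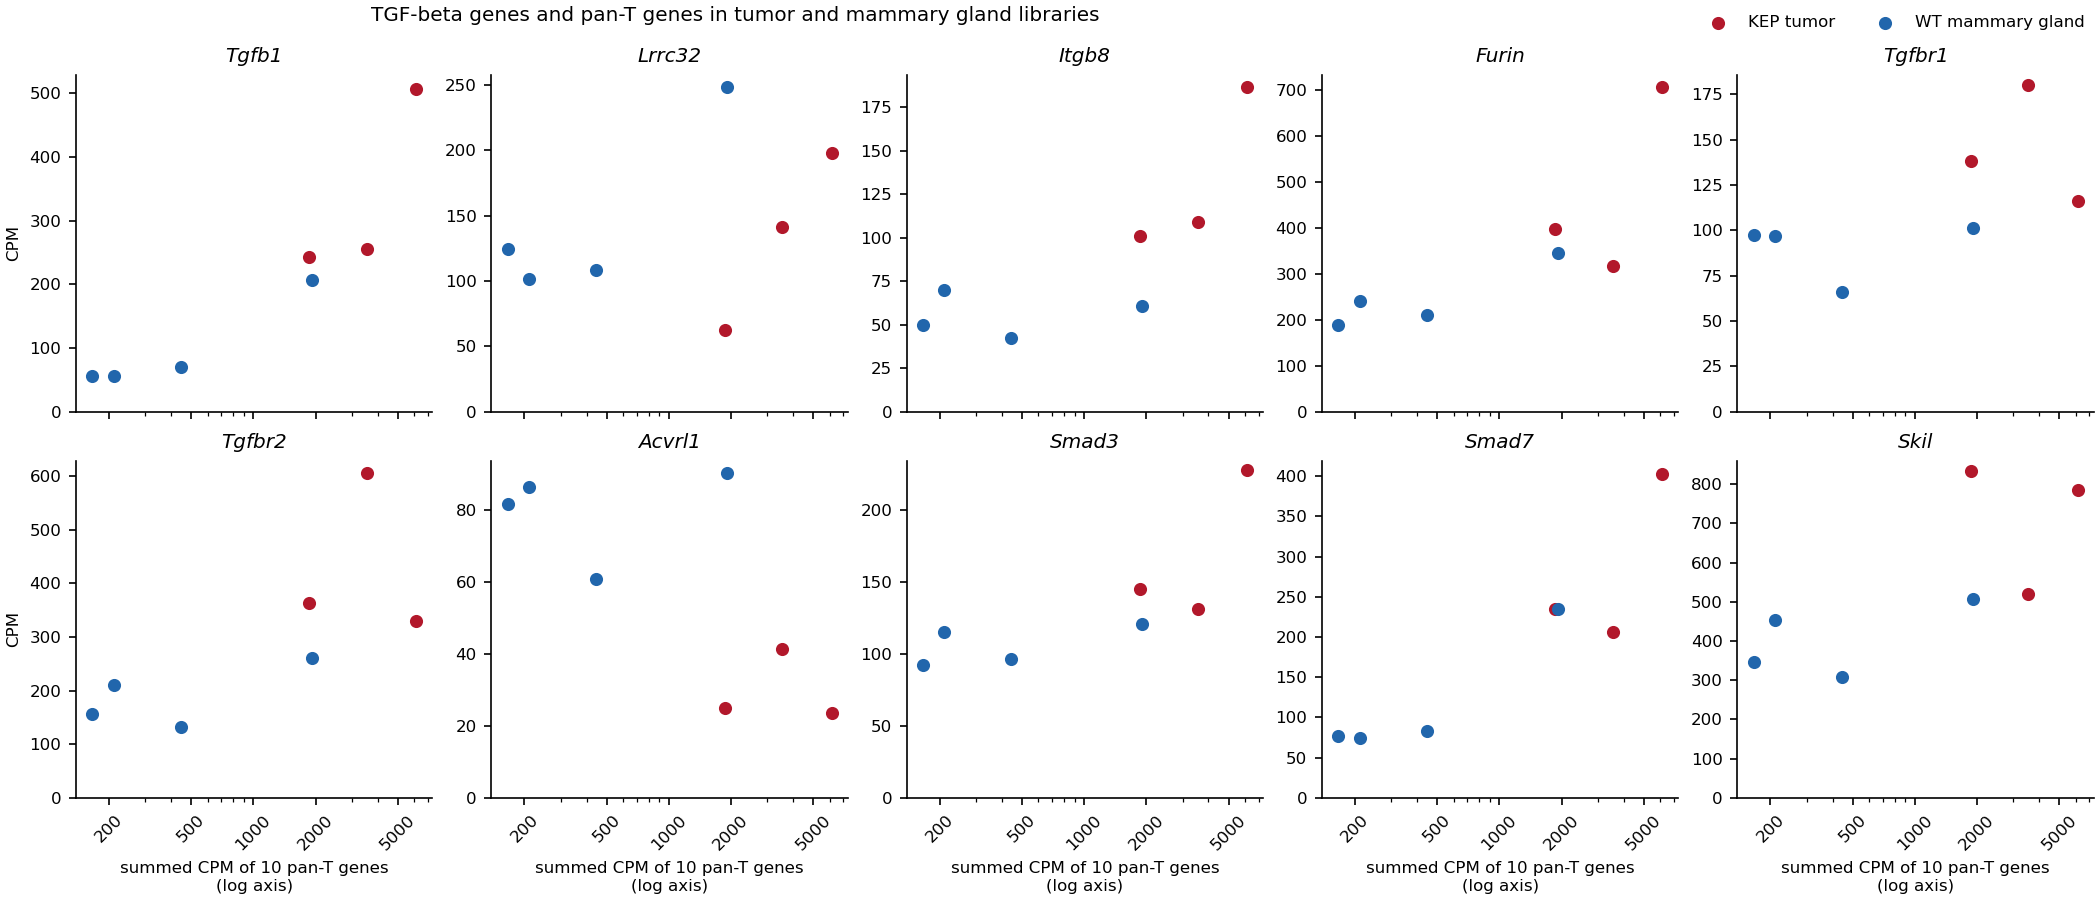
CPM of each of the 10 genes against the summed CPM of 10 pan-T genes (log axis) in the 3 KEP tumor libraries (red) and the 4 WT mammary gland libraries (blue). Gland replicate 2, at 1913 CPM of pan-T genes, is the blue point with 207 CPM of Tgfb1, 248.7 CPM of Lrrc32 and 235 CPM of Smad7, and for Acvrl1 all red points lie below all blue points.

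Other genes of the pathway were read from 4 lists. Of 18 other ligands and activators, 12 could be tested in the 4 tissues: 4 rose in KEP blood over WT blood, 1 in lung, and none in spleen or lymph node. Over all genes 9.88% were called higher in blood, 9.61% in lung, 3.3% in spleen and 0.663% in lymph node. Thbs1, an activator of latent TGF-beta that platelets release, averaged 34.1 ± 1.40 CPM in KEP blood and 10.3 ± 5.75 CPM in WT blood (log2 fold change 1.72, adjusted p = 0.0022). It was at 0.851 CPM in KEP spleen, 0.72 CPM in WT spleen and 308 ± 199 CPM in KEP tumor. Platelet markers summed to 4.326 to 10.63 CPM in KEP spleen, 1.946 to 7.181 CPM in WT spleen and 6.909 to 39.92 CPM in KEP tumor. In KEP tumor, fibroblast and smooth muscle markers summed to 4315 to 9880 CPM and macrophage and monocyte markers to 882.4 to 5490 CPM. The part of any of these cells in the Thbs1 levels was not tested. Itgav, the alpha V partner of beta 8, rose in KEP blood by 0.40 (adjusted p = 0.00537) and in KEP lung by 0.30 (adjusted p = 0.0283), the tissues in which Itgb8 rose. It averaged 725 ± 203 CPM in KEP tumor and 156 ± 55.6 CPM in WT mammary gland (log2 fold change 2.29, adjusted p = 0.006). Nrros, which anchors latent TGF-beta on myeloid cells, fell in lung to 69.6 ± 7.70 CPM in KEP lung, against 133 ± 9.01 CPM in KEP spleen, and to 61.6 ± 6.16 CPM in WT lung, against 126 ± 4.68 CPM in WT spleen. The beta chains Itgb3 and Itgb1 fell in lymph node relative to spleen, by -1.82 and -0.82 in KEP mice and -1.13 and -0.72 in WT mice.

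Of 11 other receptors, 9 could be tested in the 4 tissues: in KEP against WT, 2 rose and 1 fell in blood, 1 rose and 1 fell in lung, and none passed in spleen or lymph node, where 20.2% of all genes were called in blood, 19.9% in lung, 4.26% in spleen and 1.12% in lymph node. Tgfbr3, the co-receptor betaglycan, fell to 16.7 ± 8.34 CPM in KEP blood, against 38.7 ± 6.09 CPM in WT blood (log2 fold change -1.21, adjusted p = 0.00319). Bmpr2, a type II receptor for BMPs, rose in KEP blood by 0.48 (adjusted p = 0.0241) and KEP lung by 0.58 (adjusted p = 0.00731). Bambi, a decoy receptor, rose in lung over spleen by 5.33 in KEP mice (37.9 ± 4.11 CPM in KEP lung and 0.927 ± 0.078 CPM in KEP spleen) and by 5.74 in WT mice (35.0 ± 7.18 CPM in WT lung and 0.67 ± 0.286 CPM in WT spleen). In lung over spleen 6 of these receptors rose and 1 fell in KEP mice, and 5 rose in WT mice, where 23.7% of all genes were called higher and 24.4% lower in KEP mice and 23.1% higher in WT mice.

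Of 21 other SMADs and regulators, 20 could be tested in the 4 tissues. In KEP against WT, 2 rose and 5 fell in blood, 1 rose and 2 fell in spleen, 1 rose and 2 fell in lung, and none passed in lymph node, beside 20.2%, 4.26%, 19.9% and 1.12% of all genes called in these tissues. Ski, the close relative of SnoN, fell in lung, to 444 ± 17.7 CPM in KEP mice, against 555 ± 39.4 CPM in WT mice (log2 fold change -0.36, adjusted p = 0.00139), where Skil rose. Pmepa1, a TGF-beta-induced inhibitor, rose in KEP blood by 0.75 (adjusted p = 0.00118), and the corepressor Tgif2 fell by 0.95 (adjusted p = 0.000107). In lung over spleen 14 of the 20 rose in KEP mice and 12 in WT mice, with none lower, where 23.7% of all genes were higher and 24.4% lower in KEP mice and 23.1% higher and 21.8% lower in WT mice. The largest of those named was the corepressor Tgif1, at 1064 ± 81.7 CPM in KEP lung and 43.5 ± 10.2 CPM in KEP spleen (log2 fold change 4.6), and at 955 ± 78.4 CPM in WT lung and 51.4 ± 9.86 CPM in WT spleen (log2 fold change 4.24).

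Of 12 genes known as TGF-beta targets, 11 could be tested in the 4 tissues, and in KEP against WT 3 rose in blood, 3 rose and 1 fell in spleen, 2 rose and 1 fell in lung, and none passed in lymph node. Of all genes 20.2% were called in blood, 4.26% in spleen, 19.9% in lung and 1.12% in lymph node. Itgae rose most in spleen, at 412 ± 40.8 CPM in KEP mice and 97.6 ± 6.59 CPM in WT mice (log2 fold change 2.08, adjusted p = 6.07e-08), and also in blood by 1.09 (adjusted p = 5.47e-05) and lung by 1.32 (adjusted p = 1.07e-05). Its effect in spleen was larger than in lymph node by 1.61 (adjusted p = 0.00159). Ctgf, a matrix protein gene, averaged 90.8 ± 37.2 CPM in KEP tumor and 0.0802 CPM in KEP spleen. Ctgf did not pass against WT mammary gland (adjusted p = 0.248). It is known in fibroblasts, whose markers were high in the same libraries, and the part of those cells was not tested.

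The 3 genes whose log2 CPM followed each member most closely over the 24 libraries from outside tumor and mammary gland were taken from 9725 genes. These libraries share tissue, genotype and title date, so the correlations describe the pattern of levels over groups. Smad7 lay nearest to Cd69 (r = 0.963, and 0.794 over all 31 libraries), an early activation antigen and tissue retention molecule, and to the phosphatase gene Dusp4 (r = 0.948, and 0.848). Skil lay nearest to Rgs16 (r = 0.958), a regulator of G protein signalling, and kept that likeness over all 31 libraries (r = 0.953). Lrrc32 lay nearest to Cdip1 (r = 0.969, and 0.885 over all 31 libraries) and also near Il4ra (r = 0.945, and 0.504), a cytokine receptor chain. Acvrl1 lay nearest to Havcr2 (r = 0.895), the inhibitory receptor TIM-3, and near Itgae (r = 0.875), but over all 31 libraries these were 0.147 and -0.235. Tgfbr1 lay nearest to Cacnb4 (r = 0.940, and 0.766 over all 31 libraries) and Smad3 to Dtx1 (r = 0.939, and 0.475), a Notch pathway gene. Among the members themselves, over the same 24 libraries, Lrrc32 correlated with Smad7 at 0.917 and with Skil at 0.891. Tgfbr1 correlated with Acvrl1 at 0.737, and Smad3 with Acvrl1 at -0.754. Over all 31 libraries these were 0.764, 0.761, 0.328 and -0.744 in the same order. Other pairs of members are not listed.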

How the data were processed

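RNA of sorted Tregs was sequenced as 65-base single reads from stranded mRNA libraries, per the labels' protocols. The deposited values are counts of reads per gene that the authors made, with TopHat2 2.1.0, HTSeq and GRCm38 named in the submitters' processing notes. The strand setting of the counting and the annotation release are not given in the sources used here. Depth was 8154765 to 15258958 counts per library, and replicates differed by more than counting noise, so none was the same library read again. This check cannot tell whether libraries share RNA or mice. Each library was a single KEP mouse or a pool of 3 WT mice.

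Counts were tested with the quasi-likelihood test of edgeR 4.0.16 (R 4.3.3) after TMM scaling and a filter at a minimum count of 10, with Benjamini-Hochberg adjustment over all genes. KEP against WT, tissue against spleen and their differences came from 1 fit of 24 libraries in 8 groups, and tumor comparisons from fits of their 2 groups. DESeq2 1.42.0, limma-voom (limma 3.58.1), other scalings and filters, covariates and left-out libraries were alternatives. The models were tested on simulated data. Title dates served as a replicate block: same-date KEP libraries outside the tumor deviated together in 18 of 18 pairs (median r = 0.265), WT libraries exceeded 0.1 in 7 of 18 pairs (median r = 0.0893), and tumor libraries showed no such pairing (median r = -0.000504).

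The members and gene lists were chosen with earlier results of these data known. All 10 members are named, and from each wider list up to 2 called genes per comparison with the smallest p could be named. The 3 nearest genes per member were taken by Pearson's r of log2 CPM (prior count 2) among genes with a mean of at least 5 CPM. A gene of the target list is not reported here by name.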

Additional observations from a re-analysis of the deposited data

Results flagged for a closer look

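Each of the 10 genes was screened for a library far from the rest in WT mammary gland, the one group of 4 libraries, where chance alone would be expected to mark about 1 in 20. Replicate 2 stood far above the others for Tgfb1, at 206.9 CPM beside 55.9 to 69.86 CPM, for Lrrc32, at 248.7 CPM beside 101.9 to 124.8 CPM, and for Smad7, at 234.6 CPM beside 74.04 to 83.51 CPM. The same library held 1913 CPM of the 10 pan-T genes, and the other gland libraries held 165.8 to 444.9 CPM. Tgfbr1 was low in replicate 1, at 66.25 CPM beside 96.93 to 101.2 CPM in the others.

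The KEP effect on Tgfbr1 was larger in blood than in lymph node by 0.4733 on the log2 scale (edgeR's interaction test, adjusted p = 0.0482). Tgfbr1 was higher in KEP than in WT mice in all 3 KEP libraries of both tissues.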

How the results depend on the processing

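Of 77 called combinations of gene and comparison, 1123 of 1301 values under the alternatives kept their direction and call, 173 kept direction only and 5 reversed. With sorted cell number as a covariate, the called members numbered 2 (KEP against WT in blood), 3 (WT blood against spleen), 0 (tumor against mammary gland) and 0 (differences of the KEP effect between tissues). In a fit of all 31 libraries they numbered 1 in spleen and 1 in lung for KEP against WT, 1 for KEP blood, 3 for KEP lymph node, 1 for WT blood and 4 for WT lymph node against spleen, 4 for tumor against KEP lung, and 0 for the differences. KEP against WT in lung gave 2 with its 2 groups alone and 3 with pan-T scaling. The differences gave 2 with DESeq2, 0 with limma-voom, 5 with no filter and 0 with pan-T scaling. Calls over all genes under these alternatives are not given for the differences. In the comparisons of 2 groups, calls over all genes moved too. With the covariate they were 575 higher and 585 lower for KEP against WT in blood, against 1267 and 1324 without it. For WT blood against spleen they were 1165 and 988, against 1765 and 1507. For tumor against mammary gland they were 7 and 136, against 1632 and 2035. In the fit of all 31 libraries they were 66 and 2 for KEP against WT in spleen, against 423 and 123. In lung they were 253 and 216, against 1233 and 1317. For tumor against KEP lung they were 4882 and 3289, against 2542 and 1668. The cause of these moves was not tested.

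Pan-T scaling reversed tumor against mammary gland for Tgfb1 (-1.20), Itgb8 (-2.31), Furin (-2.39), Tgfbr1 (-2.70), Tgfbr2 (-2.08), Smad3 (-2.77) and Skil (-2.43), with a median of all genes of -3.42. It moved that median by 0.86, 0.96, 0.90 and 0.85 for tumor against KEP blood, spleen, lung and lymph node, where 93.5%, 95.7%, 96.4% and 95.2% of called genes were then higher, beside 58.5%, 57.4%, 60.4% and 59.2% with TMM. Against spleen, it gave 73.9% higher in KEP blood (50.2% with TMM) and in WT blood (53.9%), 69.9% in WT lung (51.4%) and 66.9% in KEP lymph node (48.3%). Upper-quartile factors gave 36.4% in KEP lung (49.3%) and 39.7% in WT lung (51.4%). For KEP against WT in spleen the share was 97.1% in the fit of all 31 libraries and 77.5% in the fit of 24.

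Leaving out 1 library gave 3 to 4 called members for KEP against WT in blood, 1 to 3 in spleen, 2 to 5 in lung and 0 to 0 in lymph node. Against spleen, lung gave 7 to 9 in KEP and 7 to 8 in WT mice, lymph node 5 to 6 in KEP and 5 to 7 in WT mice, and blood 3 to 4 in KEP and 4 to 6 in WT mice. Tumor gave 1 to 8 against mammary gland (1 without gland replicate 1 or 3, 8 without gland replicate 2), and 4 to 7, 5 to 7, 1 to 2 and 3 to 6 against KEP blood, spleen, lung and lymph node. The differences between tissues gave 0 to 2. Calls over all genes are not given for the fits with a left-out library, so these ranges are not set beside a share. With title date as a replicate block, KEP blood against spleen had 6 called members instead of 4, WT lymph node against spleen 8 instead of 7 and tumor against KEP spleen 5 instead of 6. Over all genes, the calls for KEP blood were 2282 higher and 2318 lower, against 1582 and 1568 without the block. For WT lymph node they were 830 and 766, against 585 and 565, and for tumor 3058 and 2032, against 3473 and 2575. With the date as a random replicate block in limma-voom, 2 differences between tissues were called. Under the block, Tgfbr1 in tumor against KEP spleen (adjusted p = 0.064) and Smad3 in tumor against KEP lymph node (adjusted p = 0.0744) were no longer called. Calls gained under the block were Acvrl1 (0.0175) and Lrrc32 (0.0243) in KEP blood against spleen, Tgfbr2 in WT lymph node against spleen (0.0105), Lrrc32 in tumor against KEP lymph node (0.0475) and, as a random block, Smad3 in KEP against WT spleen (0.0399) and Tgfbr1 for lung minus lymph node (0.0171); Acvrl1 in KEP against WT lung was lost (0.0791).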
